A study of Mus musculus with 5 samples.

Results

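Toll-like receptors (TLRs) and the proteins that serve them were followed in mouse common lymphoid progenitors (CLPs), the bone marrow cells from which lymphocytes arise. The 10 genes were taken by symbol, through Ensembl identifiers on GRCm38, out of the 55487 genes of the count table. They are 4 receptors of the cell surface (Tlr1, Tlr2, Tlr4 and Tlr6), 4 receptors of endosomes (Tlr3, Tlr7, Tlr9 and Tlr13), the adaptor gene Myd88 and the chaperone gene Unc93b1. All 10 were found, and all 10 had at least 1 count in every library. The study set 3 libraries of SclCre;JAK2-V617F mice (named SF1 in the labels) against 2 libraries of wild-type (WT) mice. JAK2-V617F is the kinase mutant of myeloproliferative neoplasms, and SclCre is a Cre recombinase under control elements of the blood stem cell gene Scl. Marrow of both groups was taken 16 weeks after tamoxifen, and cells were sorted as lineage-negative, CD127-positive and Flt3-positive. The sources used here do not give ages, the number of animals behind a library or the alleles of the WT mice, so p-values measure only the spread between these libraries.

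TLRs recognise molecules of microbes and signal through a TIR domain inside the cell. TLR2 works in pairs with TLR1 or TLR6 and senses bacterial lipoproteins, and TLR4 senses lipopolysaccharide. TLR3, TLR7, TLR9 and TLR13 sense nucleic acids in endosomes, to which the membrane protein UNC93B1 carries them. MyD88 couples nearly all of them to IRAK kinases, while TLR3 uses the adaptor TRIF. Blood progenitors and dendritic cell precursors also carry TLRs.

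Total counts were between 8894288 and 20424296 per library, with WT replicate 1 the deepest. Of 14423 genes tested with edgeR's quasi-likelihood test, 977 were higher and 1405 lower in SF1 at a Benjamini-Hochberg adjusted p under 0.05, which is 6.77%, 9.74% and together 16.5% of the genes tested. Higher genes made up 41.0% of the calls, and 53.9% with upper quartile scaling. In 49% of the genes tested the ranges of the groups were separate. Levels are given as TMM-scaled CPM, which sets libraries of different depth on a common scale. The sort markers Il7r and Flt3 were abundant in all libraries, at 331 CPM or more and 1510 CPM or more. So was the lymphoid progenitor gene Dntt, at 4880 CPM or more. Of 7 progenitor markers 3 were higher in SF1 (Il7r, Ly6d and Ly6a), 2 were lower (Kit and Rag1) and 2 did not pass the test (Flt3 and Dntt). Of 19 neutrophil and monocyte markers 17 were higher in SF1, and none was at 0 in any library. Of those higher, Mmp8, Ly6g and Cebpe passed the filter on low counts only through their SF1 libraries. Of 10 B-lineage markers 8 were lower.

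Most TLR genes did not differ detectably between SF1 and WT progenitors, and the receptor repertoire of both groups was led by Tlr7 and Tlr2. Of the 10 genes, 9 passed the filter on low counts, 2 rose in SF1 (Tlr1 and Myd88), none fell and 7 did not pass the test. That share is near the 16.5% over all genes tested. Tlr1 and Tlr13 passed the filter only through their SF1 libraries, so the tally of rises and falls depends in part on the filter. By class, 1 of 4 surface receptors, none of 3 tested endosomal receptors and 1 of the pair Myd88 and Unc93b1 rose. None of the 3 tested endosomal receptors had an unadjusted p under 0.05 by edgeR, DESeq2 or limma voom. By edgeR 31.4% of all genes tested did, so with 3 genes this says little. The groups did not overlap in 3 of the 9 tested genes (Tlr1, Tlr3 and Myd88), beside 49% of all genes tested. The median log2 fold change (SF1 over WT) was 0.03 over the 9 genes and 0.02 over all genes tested. In bulk RNA of sorted cells, a change in the number of cells that express a gene and a change of RNA per cell cannot be told apart.

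**Figure D1:**
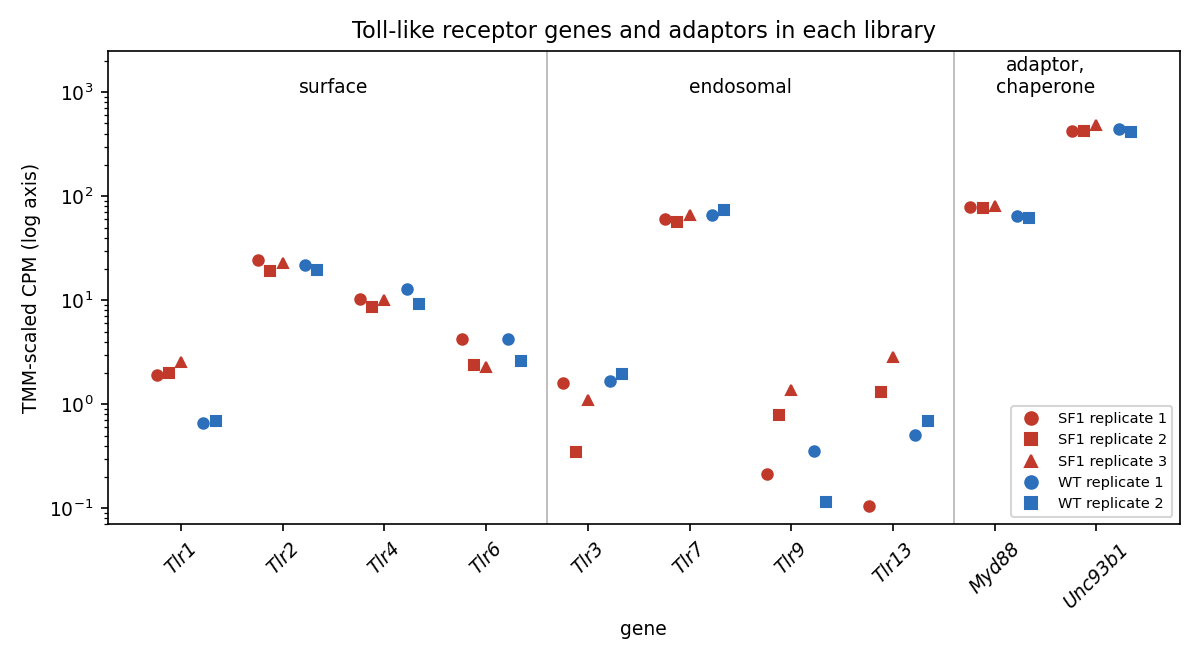
Level of each of the 10 genes in each library, as TMM-scaled CPM on a log axis, with SF1 libraries in red and WT libraries in blue. Tlr1 and Myd88 are higher in all 3 SF1 libraries than in both WT libraries, while Tlr2, Tlr4, Tlr6, Tlr7 and Unc93b1 overlap.

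Among the surface receptors, Tlr1 had the higher level in SF1 with a call that rests on few reads. Tlr1 (ENSMUSG00000044827, chromosome 5, 64924679 to 64933563, minus strand) had 18, 23 and 28 counts in the 3 SF1 libraries, in replicate order, against 13 and 6 in the WT libraries. These stood for 1.91, 2.01 and 2.57 CPM in SF1 and 0.654 and 0.683 CPM in WT. Every SF1 library was above both WT libraries. Tlr1 rose 3.23-fold (log2 fold change 1.69, SE 0.43, 95% interval 0.73 to 2.65, edgeR adjusted p = 0.028). It passed the filter, which asks for 0.932 CPM in at least 2 libraries, only through its SF1 libraries, as did Tlr13. With no filter the adjusted p over all genes was 0.0121, in a fit that gave each gene 80625 degrees of freedom in place of 9.07. Leaving out SF1 replicate 2 or 3 ended the call (adjusted p = 0.0562 and 0.0778), and so did leaving out either WT library (0.193 without replicate 1 and 0.102 without replicate 2), DESeq2 (0.0504) and thinning every library to the smallest total count (0.0501).

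Tlr1 also shares sequence with its neighbour and paralogue Tlr6 (chromosome 5, 64952031 to 64960097, minus strand). Over the longest open reading frames of GENCODE transcripts, 19.4% of the 50-base words of Tlr1 and 19.1% of those of Tlr6 were common to both genes. No other pair among the 12 mouse TLR genes compared shared a 50-base word, and the next longest identical run of any pair was 16 bases. The longest run identical in Tlr1 and Tlr6 had 229 bases, starting at base 1468 of the 2388-base Tlr1 reading frame. It is shown because reads inside it cannot be assigned to either gene, and the sources used here do not say how such reads were counted.
Tlr1 and Tlr6 shared coding run: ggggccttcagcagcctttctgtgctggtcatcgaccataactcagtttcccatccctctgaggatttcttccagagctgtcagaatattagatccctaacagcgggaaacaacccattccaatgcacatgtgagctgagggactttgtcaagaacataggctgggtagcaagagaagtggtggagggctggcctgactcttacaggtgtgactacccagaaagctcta

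Tlr6, which encodes the other partner of TLR2, was at 4.25, 2.36 and 2.30 CPM in SF1 and 4.23 and 2.62 CPM in WT. The groups overlapped, and the gene did not pass (log2 fold change -0.25, 95% interval -1.10 to 0.60, adjusted p = 0.699). The level of Tlr1 relative to Tlr6, each per exon length, was 0.501, 0.949 and 1.25 in SF1 and 0.172 and 0.291 in WT. It was higher in each SF1 library than in either WT library. This ratio uses the same few Tlr1 counts and is not a further result. Summed as a single feature, an alternative added after the values were seen, Tlr1 and Tlr6 had 58, 50 and 53 counts in SF1 and 97 and 29 in WT, or 6.17, 4.38 and 4.87 CPM and 4.88 and 3.30 CPM. The sum did not pass (log2 fold change 0.29, edgeR adjusted p = 0.528). How reads of the shared stretch were divided between the genes was not tested.

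Tlr2, the shared partner, was at 24.3, 19.0 and 22.9 CPM in SF1 and 21.6 and 19.7 CPM in WT. The SF1 range enclosed both WT values (log2 fold change 0.09, 95% interval -0.25 to 0.43, adjusted p = 0.736). Tlr2 outnumbered Tlr1 per exon length between 9.87 and 14.1 times in the SF1 libraries and 36.6 and 32.0 times in the WT libraries. That ratio too rests on the same Tlr1 counts. Tlr4, the lipopolysaccharide receptor gene, was between 8.67 and 10.3 CPM in SF1, from 97, 99 and 109 counts, and at 12.9 and 9.22 CPM in WT. These values overlapped too, and Tlr4 did not pass (log2 fold change -0.21, 95% interval -0.69 to 0.26, adjusted p = 0.527). The intervals of Tlr2 and Tlr4 bound a change in either direction at 1.35-fold and 1.61-fold, by their wider limits.

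Among the endosomal receptors, Tlr7 carried most of the RNA and no gene passed. Tlr7 (ENSMUSG00000044583, chromosome X, 167304929 to 167330558, minus strand), which encodes a receptor of single-stranded RNA, was at 60.4, 56.0 and 66.5 CPM in SF1 and 65.5 and 73.7 CPM in WT. SF1 replicate 3 lay between the WT libraries, and the other SF1 libraries lay below both. The log2 fold change was -0.19 (SE 0.11, 95% interval -0.44 to 0.06, adjusted p = 0.284), so its interval reaches no further than 1.36-fold lower or 1.04-fold higher. Tlr3, the receptor gene for double-stranded RNA, was at 1.60, 0.350 and 1.10 CPM in SF1 and 1.66 and 1.94 CPM in WT, from 15, 4, 12, 33 and 17 counts. Both WT values were above all SF1 values by a small margin (log2 fold change -0.83, SE 0.55, adjusted p = 0.335). The fold change was -0.40 without SF1 replicate 2, -1.29 without SF1 replicate 1 and -0.47 after thinning, and did not pass in any of these. An antisense gene, Gm45542, overlaps 7.32% of the Tlr3 exon bases and had at most 2 counts in a library.

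Tlr13 and Tlr9 were near the detection limit and varied most among the SF1 libraries. Tlr13, which encodes a receptor of bacterial ribosomal RNA, had 1, 15 and 31 counts in the SF1 libraries against 10 and 6 in WT, or 0.106, 1.31 and 2.85 CPM and 0.503 and 0.683 CPM. SF1 replicate 1 lay below both WT libraries and the other SF1 libraries above (log2 fold change 1.33, 95% interval -0.68 to 3.34, adjusted p = 0.342). Tlr9, the receptor gene for unmethylated CpG DNA, had 2, 9 and 15 counts in SF1 and 7 and 1 in WT and was removed by the filter. With no filter its log2 fold change was 1.55 (edgeR adjusted p = 0.227). Both genes were highest in SF1 replicate 3, where the neutrophil marker S100a9 was also highest (224, 317 and 876 CPM in SF1 and 19.0 and 21.4 CPM in WT). The summed neutrophil and monocyte list was at 2450, 3100 and 6360 CPM in SF1 and 1130 and 1420 CPM in WT. The part of such cells in the Tlr13 and Tlr9 counts was not tested.

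**Figure D2:**
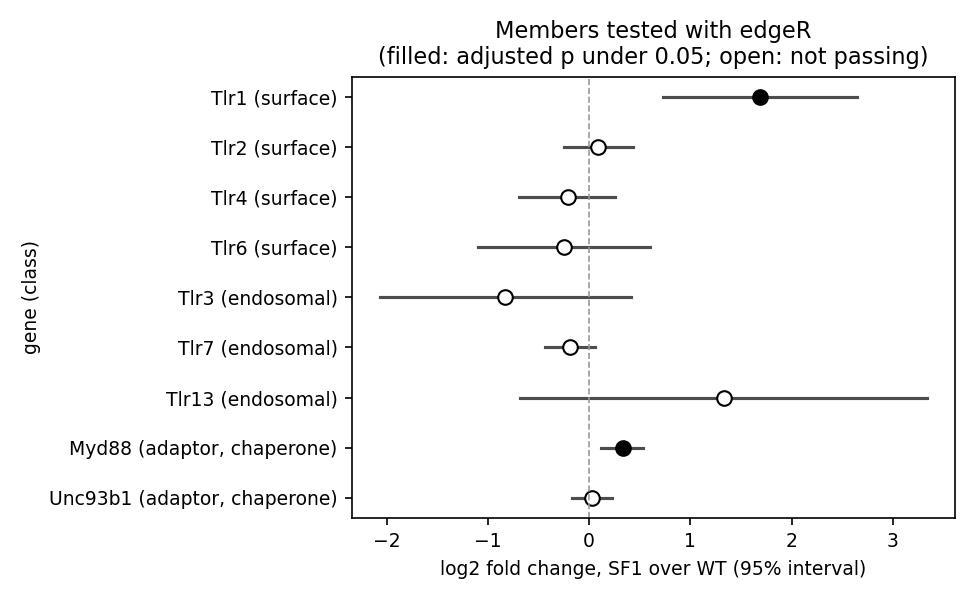
Log2 fold change of the 9 genes tested, SF1 over WT, with 95% intervals from edgeR's quasi-likelihood fit. Filled points (Tlr1 at 1.69 and Myd88 at 0.33) had an adjusted p under 0.05, and the intervals of the 7 open points include 0.

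Myd88, the adaptor gene, was modestly higher in SF1. Myd88 (ENSMUSG00000032508, chromosome 9, 119335934 to 119341411, minus strand) was at 79.0, 77.3 and 81.3 CPM in SF1 and 64.9 and 61.4 CPM in WT, from 539 to 1289 counts. The libraries of each group lay close together and the groups did not overlap. Myd88 rose 1.25-fold (log2 fold change 0.33, SE 0.09, 95% interval 0.12 to 0.53, edgeR adjusted p = 0.0417). The call was lost when any 1 of the 5 libraries was left out (adjusted p from 0.0709 to 0.163), with no filter (0.0735) and after GC and length correction (0.0775). The opposite-strand gene Acaa1a overlaps 11.3% of the Myd88 exon bases, and these libraries do not mark strand. Acaa1a was at 53.1, 58.5 and 62.4 CPM in SF1 and 57.9 and 55.9 CPM in WT (log2 fold change 0.03, adjusted p = 0.891).

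Unc93b1 (chromosome 19, 3935186 to 3949340, plus strand), which the endosomal receptors need to leave the endoplasmic reticulum, was the most abundant of the 10 genes. It was at 420, 419 and 482 CPM in SF1 and 445 and 417 CPM in WT. The groups overlapped (log2 fold change 0.03, SE 0.09, 95% interval -0.17 to 0.23, adjusted p = 0.854), so a change beyond 1.17-fold in either direction lies outside the interval. Per exon length, Unc93b1 exceeded the sum of Tlr3, Tlr7, Tlr9 and Tlr13 by 9.11, 9.65 and 9.06 times in SF1 and 8.86 and 7.39 times in WT.

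The upstream sequences of Tlr1 and Myd88 are shown, since these are the members called higher by edgeR with all libraries. Both calls were lost in some of the alternatives given above. RefSeq promoters (GRCm38.p6) matched 7 of the 10 genes. Tlr4, Tlr7 and Unc93b1 had no entry. Each sequence below is the 250 bases before a start site, and capitals mark matches to any of 4 motifs searched on both strands: the STAT motif TTCNNNGAA, the PU.1 core GAGGAAG, the interferon response core GAAANNGAA and the NF-kB consensus. For Tlr1, the outer of its start sites is given (chr5:64933559-64933808, minus strand), and for Myd88 the single entry (chr9:119340019-119340268, minus strand).
Tlr1: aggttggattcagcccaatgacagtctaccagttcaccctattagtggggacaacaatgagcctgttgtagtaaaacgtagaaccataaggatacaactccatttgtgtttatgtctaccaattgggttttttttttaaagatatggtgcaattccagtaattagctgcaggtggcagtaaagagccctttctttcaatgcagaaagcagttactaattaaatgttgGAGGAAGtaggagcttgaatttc
Myd88: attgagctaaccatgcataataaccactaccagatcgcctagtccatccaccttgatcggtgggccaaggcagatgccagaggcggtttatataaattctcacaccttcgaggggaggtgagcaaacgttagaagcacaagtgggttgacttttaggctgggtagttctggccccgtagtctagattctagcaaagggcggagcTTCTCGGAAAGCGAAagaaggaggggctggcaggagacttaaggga

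The outer Tlr1 window held a PU.1 core 23 to 17 bases before the start and no other match. The window of the other Tlr1 start held a STAT motif 228 to 220 bases before it, and 211 of its 250 bases lie in annotated exons. The Myd88 window held a STAT motif 46 to 38 bases before the start, overlapped by an interferon response core at 40 to 32 bases. Among the 32851 promoter windows of the same length, 7.02% held the STAT motif, 10.6% the PU.1 core, 7.13% the interferon response core and 3.9% the NF-kB consensus. The inner start of Tlr6, which did not pass the test, held a pair of overlapping interferon response cores. The windows of Tlr9 and Tlr13 each held a PU.1 core. The NF-kB consensus was matched in the Tlr2 window, at 173 to 164 and 172 to 163 bases before the start. It was also matched in the Tlr3 window, at 211 to 202 bases. These are matches of letters and do not show binding.

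Per exon length the first 6 of the 10 genes had the same order in both groups. In WT it ran from Unc93b1 at 142 ± 6.66 CPM per kb (SD, n = 2) through Myd88 at 24.5 ± 0.954, Tlr7 at 17.0 ± 1.42, Tlr2 at 6.85 ± 0.442, Tlr4 at 1.99 ± 0.472 and Tlr6 at 0.918 ± 0.305 CPM per kb to Tlr3, Tlr1, Tlr13 and Tlr9, which were between 0.345 and 0.067 CPM per kb. No neighbours in this order overlapped between the WT libraries, of which there were only 2. In SF1 the levels were led by Unc93b1 at 145 ± 11.9, Myd88 at 30.8 ± 0.781, Tlr7 at 14.9 ± 1.29 and Tlr2 at 7.31 ± 0.903 CPM per kb (SD, n = 3). Tlr1 came seventh at 0.648 ± 0.106 CPM per kb, and from Tlr6 at 0.798 ± 0.298 CPM per kb down to Tlr3 at 0.195 CPM per kb each neighbour overlapped the next.

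The balance of surface and endosomal receptors among the 8 receptor genes of the set overlapped between the groups. The set leaves out Tlr12, an endosomal receptor gene with a mean of 3.36 CPM per kb in SF1 and 2.78 CPM per kb in WT. Of the summed CPM per kb of the 8 receptors, the surface receptors held 43.3, 38.9 and 38.1% in SF1 and 39.5 and 32.8% in WT. Tlr7 alone held 55.2, 58.6 and 57.5% in SF1 and 58.6 and 65.1% in WT, and Tlr2 held 30.0, 26.9 and 26.8% in SF1 and 26.1 and 23.6% in WT. The endosomal sum exceeded the surface sum by 1.31, 1.57 and 1.63 times in SF1 and by 1.53 and 2.04 times in WT. WT replicate 2 had the most endosomal and SF1 replicate 1 the most surface RNA by this ratio, with the other libraries between them.

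**Figure D3:**
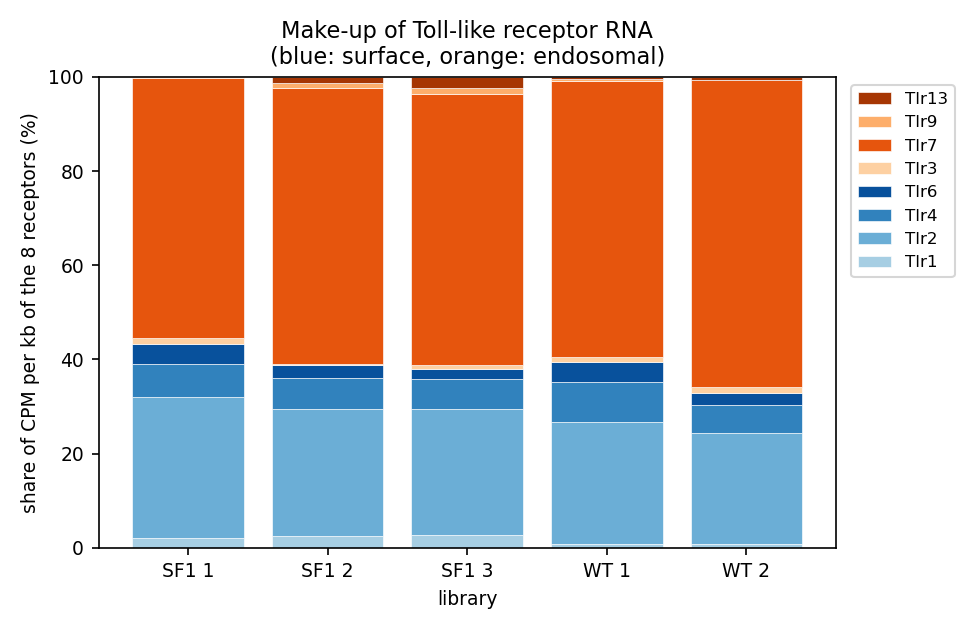
Share of each receptor gene in the summed CPM per kb of the 8 receptors, 1 bar per library, with surface receptors in blue and endosomal receptors in orange. Tlr7 makes up between 55.2 and 65.1% of each bar and Tlr2 between 23.6 and 30.0%.

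Neutrophil and plasmacytoid dendritic cell markers were higher in SF1, and the summed receptor levels overlapped. The surface receptors summed to 40.7, 32.1 and 37.8 CPM in SF1 and 39.4 and 32.2 CPM in WT, and the endosomal receptors to 62.3, 58.4 and 71.8 CPM in SF1 and 68.0 and 76.4 CPM in WT. The plasmacytoid dendritic cell list summed to 3070, 3360 and 3710 CPM in SF1 and 1750 and 1940 CPM in WT, with 8 of 10 markers higher and only Klk1 at or near 0. Ly6d, among them, is also in the progenitor list. The B-lineage list summed to 1330, 906 and 925 CPM in SF1 and 1930 and 1690 CPM in WT. Of 9 conventional dendritic cell markers 7 were tested, of which 1 rose (Itgax, which encodes CD11c) and 6 did not pass. That list summed to 1740, 1780 and 1890 CPM in SF1 and 1600 and 1670 CPM in WT. Most of this sum was Flt3, a sort marker that is also in the progenitor list. Flt3 was at 1590, 1640 and 1700 CPM in SF1 and 1510 and 1510 CPM in WT. Of 7 tested erythroid markers 6 fell (median log2 fold change -3.87), beside 9.74% of all genes tested lower. Of those that fell, Hba-a1, Hba-a2, Hbb-bs, Klf1 and Ermap passed the filter only through the WT libraries. This tally thus depends in part on the filter. The erythroid list summed to 7.13, 4.38 and 7.44 CPM in SF1 against 75.8 and 50.3 CPM in WT. In it Hba-a2, a haemoglobin gene, was at 0 in all SF1 libraries. The macrophage list overlapped between the groups in its sum, from 30.0 to 46.9 CPM in SF1 and at 36.3 and 47.1 CPM in WT. In it Cd5l and Mertk were at 0 in all SF1 libraries, 6 markers were lower and Cd68 was higher. Of the lower markers, Cd5l, C1qa and C1qb passed the filter only through the WT libraries. Cd68 alone made up most of the sum in SF1, at 22.1, 29.9 and 34.7 CPM, against 10.5 and 14.3 CPM in WT. The part of these cell types in the Tlr1 and Myd88 results was not tested.

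**Figure D4:**
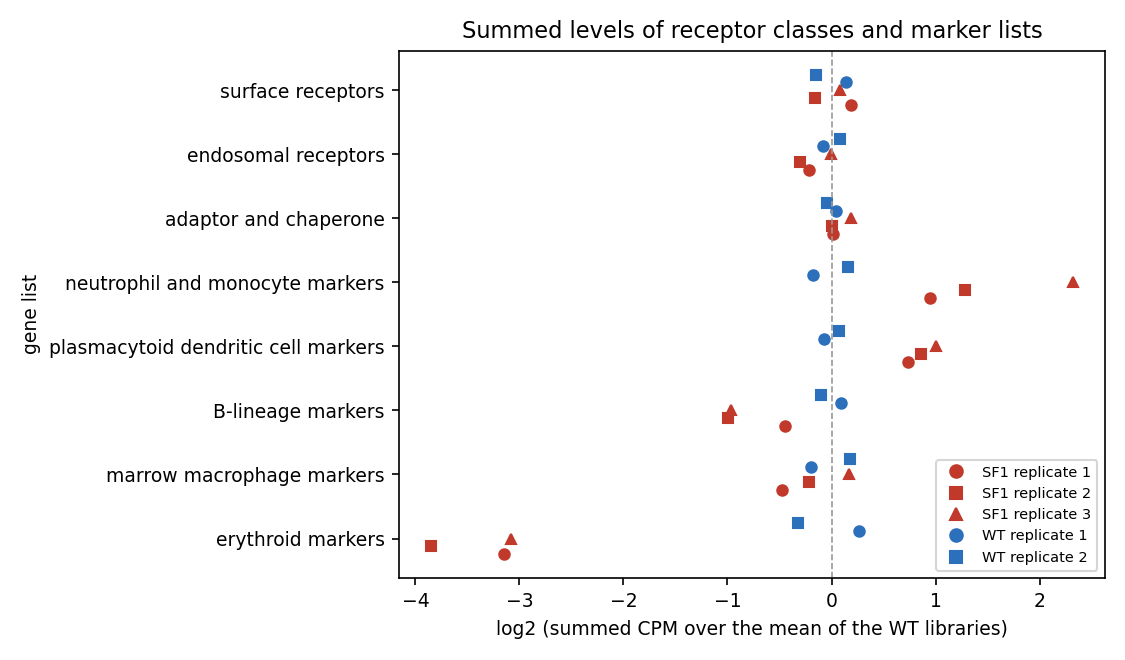
Summed CPM of each receptor class and marker list in each library, as log2 over the mean of the WT libraries. The receptor classes stay near 0 in all libraries, while the neutrophil and monocyte list reaches 6360 CPM in SF1 replicate 3 against 1130 and 1420 CPM in the WT libraries.

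Among the other genes of the pathway, 69 in 8 lists, 57 were tested, of which 6 rose and 5 fell in SF1 and 46 did not pass. The called share is close to the 16.5% of all genes tested, and the median log2 fold change was 0.07. Of the remaining receptors, Tlr12, an endosomal receptor gene of the mouse, was at 9.89, 10.4 and 11.7 CPM in SF1 and 10.9 and 6.72 CPM in WT and did not pass (adjusted p = 0.519). Tlr5, Tlr8 and Tlr11 had between 0 and 8 counts per library and were not tested.

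Genes of ligand delivery and co-receptors rose in part. Ly86, which encodes MD-1, the partner of the TLR4 homologue CD180, was at 179, 176 and 189 CPM in SF1 and 94.7 and 108 CPM in WT. All SF1 libraries were well above both WT libraries (log2 fold change 0.84, SE 0.09, edgeR adjusted p = 0.000838). Cd180 itself was at 16.7, 16.3 and 17.1 CPM in SF1 and 15.6 and 19.9 CPM in WT and did not pass (adjusted p = 0.785). Lbp, which encodes the lipopolysaccharide-binding protein, rose 1.80-fold, from 14.1 and 14.0 CPM in WT to 21.6, 24.8 and 29.6 CPM (edgeR adjusted p = 0.0104; 0.0622 without WT replicate 1). Ly96, which encodes MD-2, the lipopolysaccharide-binding subunit beside TLR4, was at 4.89, 5.52 and 7.81 CPM in SF1 and 4.18 and 3.99 CPM in WT (adjusted p = 0.200). Cd14, the co-receptor that hands lipopolysaccharide to MD-2, had 1, 5 and 22 counts in SF1 and 6 and 0 in WT and was not tested.

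In receptor folding and trafficking, 1 of 9 genes rose and 1 fell, beside 16.5% of all genes tested called in either direction. Rab7b, a small GTPase gene of late endosomes that lowers surface TLR4, was at 52.1, 52.4 and 52.9 CPM in SF1 and 27.7 and 35.5 CPM in WT, a rise of 0.74 on the log2 scale (SE 0.13, edgeR adjusted p = 0.00611). Canx, the calnexin chaperone gene, fell (log2 fold change -0.31, adjusted p = 0.0432), a call lost when any 1 library was left out (adjusted p from 0.0581 to 0.215) and with upper quartile scaling (0.0813). The TLR chaperone genes Hsp90b1 and Cnpy3 were at log2 fold changes of 0.07 and -0.05 (adjusted p = 0.578 and 0.737).

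Of 5 other adaptor genes, 4 were tested and none passed by edgeR, DESeq2 or limma voom. By edgeR 2 had an unadjusted p under 0.05, beside 31.4% of all genes tested. Tirap, which links TLR2 and TLR4 to MyD88, was at 12.8, 13.6 and 14.7 CPM in SF1 and 9.86 and 10.1 CPM in WT, without overlap (log2 fold change 0.45, adjusted p = 0.103). Ticam1 (TRIF) and Ticam2 (TRAM), the adaptor genes of the MyD88-independent branch, were at log2 fold changes of 0.23 and -0.11 (adjusted p = 0.402 and 0.575).

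Downstream, 3 of 19 kinase and ubiquitin ligase genes fell and none rose, beside 16.5% of all genes tested called in either direction and 9.74% lower. Tab1, which encodes an activator subunit of the kinase TAK1, was at 34.5, 25.7 and 22.5 CPM in SF1 and 56.0 and 50.7 CPM in WT, with every SF1 library below both WT libraries (log2 fold change -0.96, SE 0.17, edgeR adjusted p = 0.00627). Traf3, a ubiquitin ligase gene of the interferon branch, fell (log2 fold change -0.65, edgeR adjusted p = 0.0129, but 0.122 when WT replicate 1 was left out). Traf6, the ubiquitin ligase gene next to the IRAK kinases, was at 81.9, 82.0 and 65.3 CPM in SF1 and 113 and 100 CPM in WT (log2 fold change -0.49, adjusted p = 0.025). For Traf6 the adjusted p was 0.0514 or 0.0633 with SF1 replicate 2 or 3 left out and 0.177 with WT replicate 1 left out. The receptor-proximal kinase genes Irak1 and Irak4 did not pass (log2 fold changes -0.16 and 0.34, adjusted p = 0.185 and 0.0767).

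None of the 3 interferon regulatory factor genes passed by edgeR or DESeq2 with all libraries. The limma voom fit called Irf7, which also had an unadjusted p under 0.05 by edgeR, as did 31.4% of all genes tested. Irf7, which carries the TLR7 and TLR9 signal to type I interferon genes, was at 56.8, 24.9 and 27.4 CPM in SF1 and 75.7 and 60.2 CPM in WT. SF1 replicate 1 stood close to the WT libraries and the other SF1 libraries far below (log2 fold change -0.92, SE 0.30, adjusted p = 0.0691). Irf7 was called lower by edgeR without SF1 replicate 1 (-1.38, adjusted p = 0.00153), with the replicate block (adjusted p = 0.0337) and with no filter, and it was not called without any of the other libraries (adjusted p from 0.0813 to 0.303). Irf5 and Irf3 were at -0.18 and 0.06 (adjusted p = 0.322 and 0.676). Of 9 inhibitor genes 1 fell, beside 9.74% of all genes tested lower. This was Dok3, which encodes an adaptor that restrains TLR4 and B-cell receptor signals. Dok3 went from 68.3 and 55.8 CPM in WT to 36.5, 31.1 and 39.6 CPM in SF1 (log2 fold change -0.80, edgeR adjusted p = 0.00579). That call was lost when WT replicate 1 was left out. The feedback inhibitor genes Tnfaip3 and Nfkbia were at 0.12 and 0.23 (adjusted p = 0.685 and 0.200).

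Of 14 response genes 8 were tested, of which 3 rose, none fell and 5 did not pass. Over all genes tested 6.77% were higher and 16.5% were called in either direction. The median log2 fold change of the 8 genes was 0.67, against 0.02 over all genes tested. Of the 8, Il1b, with the largest value at 4.55, and Ccl5 passed the filter only through their SF1 libraries. This median thus depends in part on the filter. Ccl3, a chemokine gene of myeloid cells, was at 19.3, 13.8 and 26.3 CPM in SF1 and 6.39 and 6.04 CPM in WT, with all SF1 libraries above both WT libraries (log2 fold change 1.66, SE 0.27, edgeR adjusted p = 0.00485). Ier3, an immediate early gene, rose by a log2 fold change of 1.55 (adjusted p = 0.0136, against 0.0562 with SF1 replicate 2 and 0.0826 with WT replicate 1 left out). Nfkbiz, which encodes an inducible nuclear regulator of NF-kB, rose by 0.75 (adjusted p = 0.0216; 0.0693 or 0.0756 with SF1 replicate 2 or 3 left out and 0.0798 with WT replicate 2 left out). Tnf did not pass, at 4.15, 2.45 and 2.30 CPM in SF1 and 6.84 and 5.35 CPM in WT, with every SF1 library below both WT libraries (log2 fold change -1.06, adjusted p = 0.0509). Il1b had 2, 14 and 106 counts in SF1 and 0 and 4 in WT (adjusted p = 0.0946), highest in SF1 replicate 3 as the neutrophil markers were. Il6, Cxcl2, Ptgs2 and Ifnb1 had at most 1 count in any library.

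**Figure D5:**
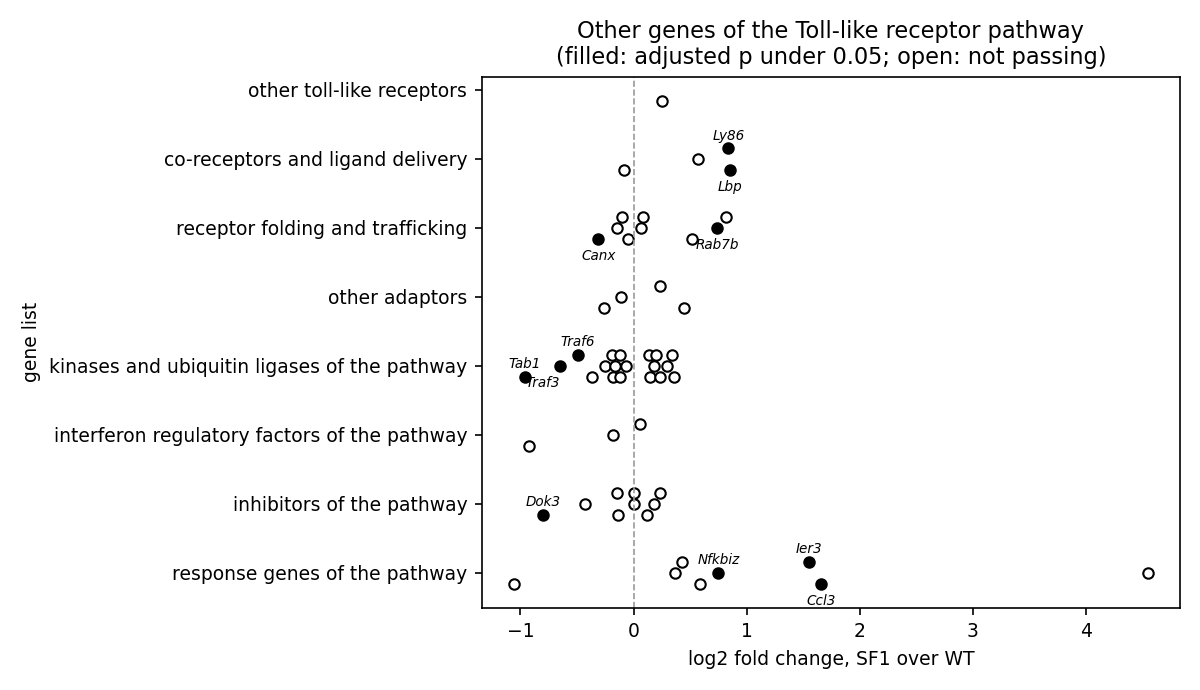
Log2 fold change (SF1 over WT) of each tested gene of the other pathway lists, 1 row of points per list, with vertical offsets only to separate points. The 11 filled, named points had an adjusted p under 0.05 (6 higher, 5 lower), and Il1b is the open point farthest to the right at 4.55. Il1b passed the filter on low counts only through its SF1 libraries.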

How the data were processed

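RNA of sorted CLPs was sequenced in 5 libraries, 3 SF1 and 2 WT, grouped by the labels. The authors deposited raw counts per gene, not normalized. The submitters' processing notes name HISAT2 2.2.1, featureCounts 2.0.1, FastQC and the build GRCm38. The sources used here do not give the annotation release, the strand setting or how multi-mapping reads were counted. Per the labels' protocols, SMART-Seq cDNA (version 2 or 4) went into Nextera XT libraries, without molecular identifiers or strand, so PCR copies count as reads.

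Of 55487 gene IDs, 55227 matched GENCODE M21, which gave symbols, coordinates and exon lengths. Genes were tested with edgeR 4.0.16 (R 4.3.3; TMM, filterByExpr with minimum count 10, quasi-likelihood F test, Benjamini-Hochberg adjustment over all 14423 genes tested, threshold 0.05), with SE from the F statistic and 95% intervals from its moderated degrees of freedom. The script was tested on simulated data. A count of 1 stood for 0.0503 to 0.114 CPM. Within groups, chi-square per degree of freedom between libraries was 6.38 to 8.81, so none was the same library sequenced again. These values cannot tell whether libraries were made from the same RNA or animal. Alternatives were other scalings and filters, DESeq2 1.42.0, limma 3.58.1 (voom), thinning, GC and length correction, a replicate block and leaving out each library. Named genes are the 10 members, up to 4 called genes of each pathway list, receptor-proximal genes, defining markers and, for each tested member, the gene with the nearest profile. Tnf, Il1b, Dntt, Tnfaip3, Nfkbia, Cd68, overlapping genes and genes at or near 0 were named after their values were seen. So were Ly6d, Ly6a, Kit, Rag1 and the genes named for passing the filter only through SF1 or only through WT. Members and lists were chosen with earlier results of these data known.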

Additional observations from a re-analysis of the deposited data

How the results depend on the processing

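The number of genes called over the whole table was 1519 in a fit with a replicate block and between 986 and 2170 with 1 library left out. Where WT kept a single library, that library was assumed to vary like the others. In the replicate block SF1 replicate 3 had no WT library of the same number, so it added nothing to the fold changes of that fit. Of the 10 TLR and adaptor genes, only Tlr1 was called with no filter and after GC and length correction. Only Myd88 was called by DESeq2, after thinning and with the stricter filter, which left Tlr1 untested. Each of these gave 1 call in place of 2, and between 0 and 1 were called with 1 SF1 library left out. With the replicate block 0 were called by edgeR, and 2 had an unadjusted p under 0.05, as did 3687 of the 14423 genes in that fit. Without SF1 replicate 2 or 3, again 0 of the 10 genes were called and 2 had an unadjusted p under 0.05. DESeq2 called 1 and limma voom 2 with all libraries. With no filter the fit gave 80625 degrees of freedom in place of 9.07, so its p-values are not on the footing of the others. Of the other pathway genes, 18 were called with no filter and between 6 and 13 with 1 library left out, against 11. Nothing in the labels says that the shared replicate numbers pair the libraries. Deviations from the group means correlated at 0.0356 for number 1 and 0.0646 for number 2. With only 2 WT libraries their deviations mirror each other, so these values cannot decide whether the numbers pair the libraries. The direction turned for Tlr2 after GC and length correction (-0.06), for Tlr13 and Unc93b1 with the replicate block (-0.02 and -0.04), for Unc93b1 without SF1 replicate 3 or WT replicate 2 (-0.04 and -0.02) and for Tlr4 and Tlr6 without WT replicate 1 (0.07 and 0.17). With 1 library left out Tlr4 ranged from -0.43 to 0.07, Tlr6 from -0.59 to 0.17 and Unc93b1 from -0.04 to 0.08. None of these had passed the test. The cause was not tested. Depth limits Tlr1, Tlr3, Tlr9 and Tlr13, each with at most 33 counts in a library.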

Other observations

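Each tested member was compared with all genes of at least 5 CPM by the shape of its profile over the 5 libraries, as the root mean square difference of log2 (CPM + 0.25) after centring each gene on its own mean. The gene nearest to Tlr1 was Neat1, a nuclear noncoding RNA (difference 0.0927), which itself rose in SF1 (log2 fold change 1.29, edgeR adjusted p = 0.00273). The gene nearest to Myd88 was Fam114a2 (0.0199), that nearest to Tlr7 was Gtf2f2 (0.0161) and that nearest to Unc93b1 was Oaz2 (0.0202). Tlr3 lay nearest to Rsad2, an interferon-induced gene (0.145), and Tlr13 had no close neighbour, with the nearest, Xdh, at 0.441. With 5 libraries and over 11043 genes compared, near profiles occur readily, and these values are a description only.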
